A study of Homo sapiens with 44 samples.

Results

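The transcription factor AP-1 was followed through its subunit genes in RNA sequencing libraries of triple-negative breast cancer cells in which EZH2 or a subunit of NF-kB had been depleted. The members were a fixed list of 9 genes: JUN, JUNB and JUND of the JUN family, FOS, FOSB, FOSL1 and FOSL2 of the FOS family, and the small MAF genes MAFF and MAFK. All 9 had a row in both RNA tables, among 58735 genes of the count table and 27315 symbols of the variance-stabilised table. In the first experiment, MDA-MB-231 cells received a control siRNA, an siRNA against RELA (siRelA) or an siRNA against RELB (siRelB). In the second, MDA-MB-231 cells and SUM149 cells, a line from an inflammatory breast cancer, received a control siRNA or an siRNA against EZH2 (siEZH2). Each siRNA was given at 20 nM for 48 h to otherwise unmodified cells of an established line, with 2 libraries in each of the 7 groups, with siRNA sequences that the sources used here do not give. The 30 chromatin immunoprecipitation and input libraries of the series were not analysed here.

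AP-1 is a dimer of basic leucine zipper (bZIP) proteins. JUN proteins pair with each other or with FOS proteins, whereas FOS proteins need a JUN partner, and the dimers bind a short DNA element found near many growth, protease and cytokine genes. JUN is among the genes that AP-1 itself can activate, FOS and FOSB are classical immediate-early genes that rise briefly after a stimulus, and FOSL1 (FRA-1) is known as an abundant subunit in basal-like, invasive breast cancer cells. MAFF and MAFK belong to the wider bZIP family: they lack a transactivation domain and act through partners such as NRF2 and BACH1. RELA is the main transactivating subunit of the canonical NF-kB pathway, RELB belongs to the non-canonical pathway, and EZH2 is the catalytic subunit of the histone methyltransferase PRC2.

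The count libraries held 18.6 to 24.4 M assigned reads. For the second experiment, totals could only be estimated from the variance-stabilised values. They went from 17.4 M in SUM149 control replicate 1 to 38.1 M in MDA-MB-231 siEZH2 replicate 2. Each siRNA lowered its target: RELA changed by -3.71 ± 0.11 (log2 ± SE) under siRelA, RELB by -2.98 ± 0.16 under siRelB, and EZH2, on the variance-stabilised scale, by -2.52 ± 0.07 in MDA-MB-231 cells and -2.0 ± 0.07 in SUM149 cells. RELB also fell under siRelA, by 1.48 ± 0.14, and under siEZH2, by 1.02 ± 0.08 and 0.50 ± 0.08 in the respective lines. Of the 3 receptors whose absence defines the tumour type, only ERBB2 was above 1 CPM (reads scaled to a common library size) or 20 back-transformed counts in any group, and the basal keratins KRT5 and KRT14 were at 0 in the MDA-MB-231 count libraries. Fibroblast markers summed to 42.9 to 45.5 CPM for controls of the first experiment, 66.9 to 80.4 for siRelA and 46.3 to 55.0 for siRelB, with DCN at 0 throughout and 3 to 4 of 6 markers above 1 CPM. The summed back-transformed counts of the same 6 markers went with siEZH2 from 329 to 347 up to 652 to 702 in MDA-MB-231 cells, and from 2217 to 2351 up to 4628 to 4871 in SUM149 cells, where COL1A2, COL3A1 and LUM were at 0 in the controls. Of the 6, 4 were above 20 counts in each MDA-MB-231 group and 2 in each SUM149 group. Haematopoietic markers, with CD3E at 0 in every group, summed to 11.9 to 12.9 CPM for the control, 17.2 to 17.3 for siRelA and 8.38 to 9.74 for siRelB, and went with siEZH2 from 79.0 to 83.9 up to 212 to 247 counts in MDA-MB-231 and from 53.0 to 78.5 up to 225 or more in SUM149 cells. These sums rest on few genes, as only 1 or 2 of the 6 were above 1 CPM or 20 counts in any group. EPCAM, an epithelial adhesion molecule, fell under siEZH2 in MDA-MB-231 (-1.03 ± 0.07) and SUM149 cells (-2.16 ± 0.07). The list it belongs to, of epithelial and line markers, went both ways. Of 7 tested, 2 rose and 3 fell in MDA-MB-231 cells, when 56.6% of all genes were called. In SUM149 cells 5 rose, KRT8 (0.72 ± 0.06) and KRT5 (0.73 ± 0.07) among them, and 2 fell, when 58.0% were called. The part of these marker changes in the results on AP-1 was not tested. The 2 SUM149 control libraries stood apart from each other for 2 members. JUNB was 0.76 higher in replicate 1, the gap of rank 10 among 12356 genes, and MAFK 0.42 higher, of rank 87. FOSL1 differed by 0.57 between the siEZH2 libraries of MDA-MB-231, of rank 14. Results that rest on these libraries are given with and without them. With duplicates, each p-value weighs a change against a spread between these libraries that is estimated partly across all genes tested.

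For 7 of the 9 members RefSeq gave the sequence before a transcription start (GRCh38.p14), and 4 motifs were searched in the 250 bases upstream, on both strands. JUN and JUND are shown because they are the 2 members whose response to siEZH2 differed between the lines, and MAFF because it changed most under both NF-kB siRNAs. Capitals mark the motif matches. The JUN sequence is chr1:58784049-58784297 and the JUND sequence chr19:18281623-18281872, both on the minus strand and written 5′ to 3′. The MAFF stretches, of 30 bases each, are on the plus strand. They are chr22:38201929-38201958 upstream of its first start in the RefSeq entries and chr22:38202908-38202937 upstream of its second. Both lie inside the longer GENCODE span of the gene given below.
JUN: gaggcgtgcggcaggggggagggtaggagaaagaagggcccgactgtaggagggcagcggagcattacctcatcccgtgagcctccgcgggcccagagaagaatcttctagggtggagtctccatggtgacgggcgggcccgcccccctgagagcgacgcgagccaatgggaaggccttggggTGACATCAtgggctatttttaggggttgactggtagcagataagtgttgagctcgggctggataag
JUND: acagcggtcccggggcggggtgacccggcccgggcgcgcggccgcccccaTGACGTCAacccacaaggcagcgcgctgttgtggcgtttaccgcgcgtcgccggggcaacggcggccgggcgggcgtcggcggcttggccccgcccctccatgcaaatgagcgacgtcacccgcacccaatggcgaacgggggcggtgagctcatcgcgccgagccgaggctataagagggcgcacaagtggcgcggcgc
MAFF, first start: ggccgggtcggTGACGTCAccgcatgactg
MAFF, second start: ggctctccccGGAGTTTCCCagggcctccg

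The 8-base element TGACNTCA, which JUN and ATF dimers can bind, was found in JUN with its first base at -67 from the start, in JUND at -200 and at the first MAFF start at -54. It occurred in 6.87% of 35116 RefSeq promoter windows of the same length. The second MAFF start had a match to the 10-base NF-kB consensus at -102, which 5.21% of the windows held. The 7-base AP-1 element TGANTCA, present in 6.57% of windows, and the CArG box bound by SRF, present in 1.16%, had no match in the members' windows. TGANTCA and TGACNTCA differ in length, so the same bases cannot match both in full. These matches describe letters and not occupied sites, and nothing is drawn from windows without one.

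Levels can be compared between genes only per length, which the count table allows. In control MDA-MB-231 cells FOSL1 dominated, with a mean of 286.2 CPM per kb of exon, 64.0% of the sum over the 9 members. JUN followed at 57.1 CPM per kb (12.8%), then FOSL2 at 39.6, JUND at 37.1, JUNB at 12.4, MAFK at 8.43 and MAFF at 5.43. FOS stood at 0.660 and FOSB at 0.106 CPM per kb, so the most abundant FOS-family mRNA was FOSL1 and the most abundant JUN-family mRNA was JUN. In the controls no neighbours in this order had overlapping libraries, though FOSL2 and JUND came as near as 37.9 and 37.5 CPM per kb. The lengths are merged exons of GENCODE v44, and the annotation behind the counts is not given. The order of near neighbours, here and under the siRNAs, therefore holds only for these lengths. Under siRelA the order of the means was the same, but FOSL2 rose to overlap JUN, at 48.7 and 52.3 CPM per kb. Under siRelB the order changed: FOSL2 fell to overlap JUND, at 32.2 and 33.8, and MAFF, at 9.23, stood above MAFK, at 8.47.

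**Figure D1:**
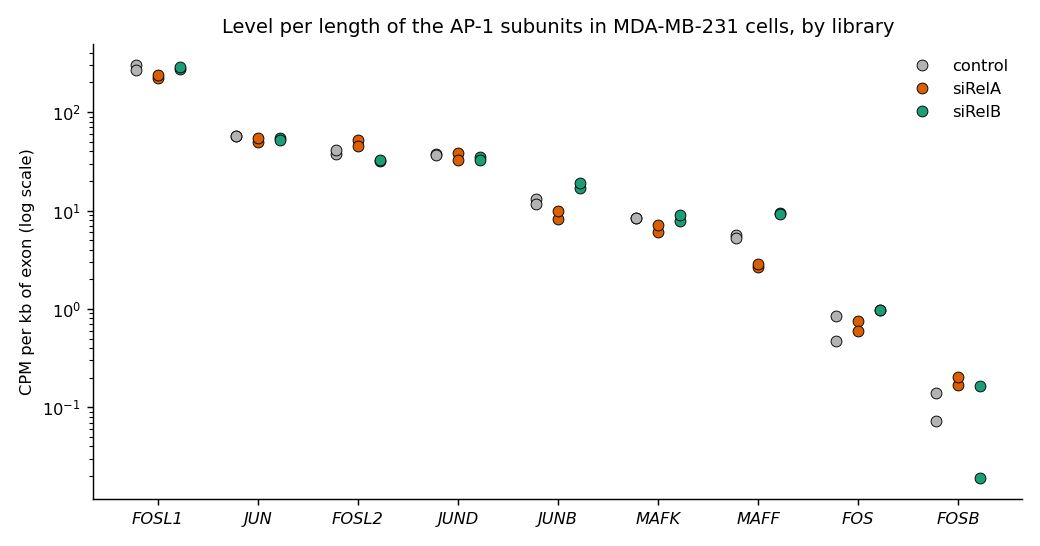
Level of each AP-1 subunit in CPM per kb of exon on a log axis, for the 2 control, 2 siRelA and 2 siRelB libraries of MDA-MB-231 cells; each point is 1 library. FOSL1 is highest in every library, and FOS and FOSB are the lowest in every group.

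Depletion of RELA and of RELB moved MAFF, JUNB and FOSL2 in opposite directions. MAFF and JUNB fell under siRelA and rose under siRelB, and FOSL2 did the reverse. Under siRelA 1 of 9 members rose and 3 fell, when 19.0% of 15930 genes were called (8.82% up, 10.2% down). Under siRelB 2 rose and 1 fell, when 18.3% were called (7.45% up, 10.8% down). Between the depletions directly 5 of 9 differed, when 29.9% were called: FOSL2 was higher under siRelA, and MAFF, JUNB, FOSL1 and MAFK were lower. Read against these shares, the members' counts are small numbers and not a result about the family. The median change of the 9 was -0.13 under siRelA and -0.02 under siRelB, against 0.02 and 0.01 over all genes. siRelA and siRelB were compared with the same 2 control libraries, so their values are given side by side. In bulk RNA, fewer cells with an mRNA and less of it per cell cannot be told apart.

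Among the JUN family, JUNB moved. JUNB, a JUN-family subunit of weaker transactivating activity, is a single-exon gene at chr19:12791486-12793315 (GRCh38, plus strand). Control libraries had 23.8 and 21.5 CPM of JUNB, siRelA libraries 15.1 and 18.0, and siRelB libraries 30.9 and 35.1. The 3 groups did not overlap. JUNB fell under siRelA by 0.45 ± 0.14 (adjusted p = 0.036) and rose under siRelB by 0.55 ± 0.14 (adjusted p = 0.012), both in edgeR's quasi-likelihood test. The siRelA call was lost without control replicate 1 (-0.39, adjusted p = 0.23), control replicate 2 (-0.53, adjusted p = 0.077) or siRelA replicate 1 (-0.35, adjusted p = 0.22). The siRelB call was lost without control replicate 2 (0.47, adjusted p = 0.15) or siRelB replicate 2 (0.44, adjusted p = 0.095). Directly, JUNB was 2.00-fold lower under siRelA than under siRelB (-1.0 ± 0.14, adjusted p = 6.5e-05), and this was called in all 12 alternative settings. JUNB lies within HOOK2 on the opposite strand, and HOOK2 was 0.76 ± 0.18 higher under siRelA (adjusted p = 0.0061). The sources used here do not give the strand setting of the counting, so their reads cannot be told apart.

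JUN and JUND passed in none of these comparisons. JUN, at chr1:58776845-58784048 (minus strand, 1 exon), had 206 and 208 CPM with the control siRNA, 180 and 199 with siRelA, and 197 and 189 with siRelB. The controls were the highest of the 6 libraries, but the changes were -0.13 ± 0.08 (adjusted p = 0.33) and -0.10 ± 0.08 (adjusted p = 0.46). JUND, the broadly expressed JUN-family subunit at chr19:18279694-18281622 (minus strand, 1 exon), stood at 72.3 and 70.9 CPM, then 73.3 and 63.2, then 67.8 and 62.5. Its siRelA libraries lay on both sides of the controls, and its changes were -0.07 ± 0.10 (adjusted p = 0.71) and -0.14 ± 0.10 (adjusted p = 0.40).

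In the FOS family FOSL1 and FOSL2 moved in opposite directions under siRelA. FOSL1, at chr11:65892049-65900573 (minus strand, 4 exons), had 573 and 507 CPM with the control siRNA, 418 and 451 with siRelA, and 523 and 541 with siRelB. The siRelA libraries were under all others, and the siRelB libraries fell within the control range. FOSL1 fell under siRelA by 0.31 ± 0.08 (adjusted p = 0.013), and the change under siRelB was -0.02 ± 0.08 (adjusted p = 0.89). FOSL1 was also lower under siRelA than under siRelB (-0.29 ± 0.08, adjusted p = 0.013). Against the control, the call was lost without control replicate 1 (-0.23, adjusted p = 0.17) or siRelA replicate 1 (-0.28, adjusted p = 0.054). Against siRelB it was lost without siRelA replicate 1 (-0.25, adjusted p = 0.064) or siRelB replicate 2 (-0.26, adjusted p = 0.093).

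FOSL2 (FRA-2), at chr2:28392448-28417317 (plus strand, 4 exons), had 271 and 296 CPM with the control siRNA, 374 and 323 with siRelA, and 226 and 234 with siRelB. The groups did not overlap. FOSL2 rose under siRelA by 0.30 ± 0.09 (adjusted p = 0.023) and fell under siRelB by 0.30 ± 0.09 (adjusted p = 0.024). The rise was lost without control replicate 1 (0.23, adjusted p = 0.26) or siRelA replicate 1 (0.17, adjusted p = 0.31). The fall was lost without control replicate 2 (-0.25, adjusted p = 0.19), siRelB replicate 1 (-0.28, adjusted p = 0.13) or siRelB replicate 2 (-0.34, adjusted p = 0.061). The direct difference, 0.60 ± 0.09 (adjusted p = 7.8e-05), was called in all 12 alternatives. FOSL2 shares its locus with the opposite-strand FOSL2-AS1 and an unnamed gene on its own strand.

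The immediate-early subunits were near the limit of detection. FOS, at chr14:75278826-75282230 (plus strand, 4 exons), had 35 and 61 reads with the control siRNA, 59 and 42 with siRelA, and 58 and 62 with siRelB. FOSB, at chr19:45467995-45475179 (plus strand, 4 exons, overlapped by ERCC1 on the other strand), had 18 and 9, then 23 and 25, then 2 and 18 reads. Neither passed in any of the 3 comparisons, and their errors were wide: the siRelA difference was 0.04 ± 0.39 for FOS and 0.81 ± 0.82 for FOSB.

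MAFF had the largest change among the members that passed in each of these comparisons. The gene, at chr22:38200767-38216507 (plus strand, 3 exons, with PLA2G6 on the other strand), had 31.55 and 29.43 CPM with the control siRNA, 14.81 and 15.96 with siRelA, and 52.41 and 51.18 with siRelB. Every siRelA library was under, and every siRelB library above, both controls. MAFF fell 1.98-fold under siRelA (-0.99 ± 0.12, adjusted p = 2.5e-05) and rose 1.70-fold under siRelB (0.76 ± 0.12, adjusted p = 0.00023). The depletions differed by -1.75 ± 0.12 (adjusted p = 3.4e-08), and all 3 calls held in each of 12 alternatives. PLA2G6 did not pass in the same tests, with changes of 0.30 ± 0.42 and 0.35 ± 0.43.

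MAFK, at chr7:1530702-1543043 (plus strand, 3 exons), had 37.9 and 37.5 CPM with the control siRNA, 27.1 and 31.8 with siRelA, and 35.1 and 40.6 with siRelB. The siRelA libraries were the lowest of the 6. The change under siRelA missed the threshold (-0.36 ± 0.12, adjusted p = 0.054) and was called in 8 of 12 alternatives, among them those without siRelA replicate 2 (-0.48, adjusted p = 0.028), siRelB replicate 1 (-0.37, adjusted p = 0.043) or siRelB replicate 2 (-0.37, adjusted p = 0.044). Under siRelB it was 0.01 ± 0.12 (adjusted p = 0.98). MAFK was lower under siRelA than under siRelB (-0.37 ± 0.13, adjusted p = 0.036). That call was lost without control replicate 1 (-0.37, adjusted p = 0.055), control replicate 2 (-0.36, adjusted p = 0.058), siRelA replicate 1 (-0.27, adjusted p = 0.24) or siRelB replicate 2 (-0.25, adjusted p = 0.26), and with only the 4 libraries compared in the fit (-0.38, adjusted p = 0.053).

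**Figure D2:**
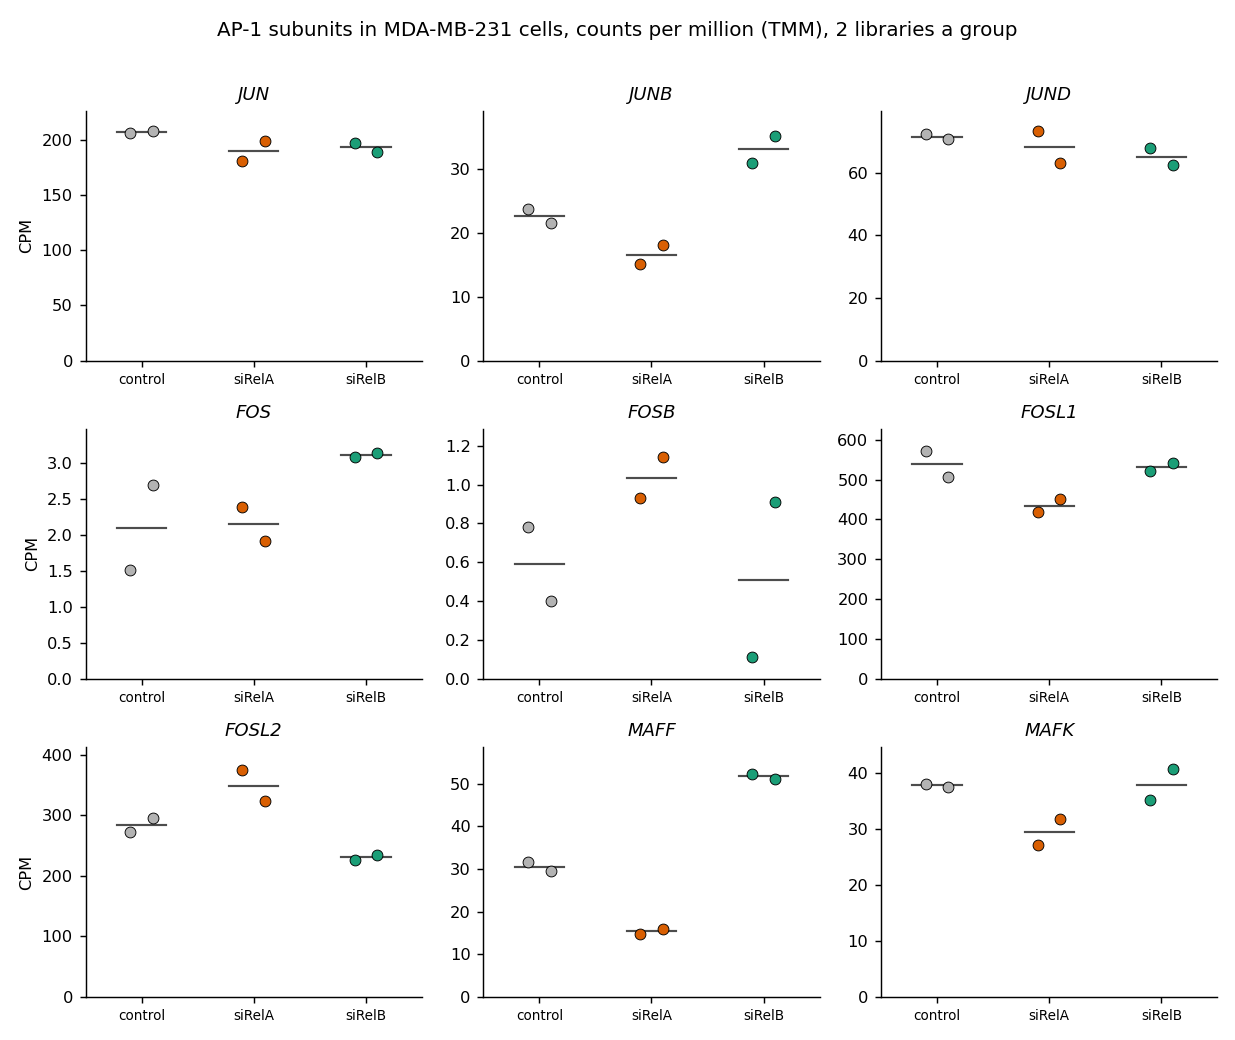
CPM of the 9 members in MDA-MB-231 cells under control siRNA, siRelA and siRelB; points are libraries, lines are means of 2, and each vertical axis starts at 0. MAFF and JUNB are lowest under siRelA and highest under siRelB, and FOSL2 shows the opposite order.

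After EZH2 depletion JUN rose in MDA-MB-231 cells and fell in SUM149 cells, JUND fell in SUM149 cells, FOSL1 rose in SUM149 cells, and both small MAF genes fell in both lines. FOSB did not reach the filter on low values, so 8 members were tested. In MDA-MB-231 cells 1 of 8 rose and 2 fell, when 56.6% of 12356 genes were called (29.4% up, 27.1% down). In SUM149 cells 1 rose and 4 fell, when 58.0% were called (29.4% up, 28.6% down). The members' counts are near these backgrounds. These values are variance-stabilised, on a log2-like scale that understates the change of genes with few reads, and were tested with limma.

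**Figure D3:**
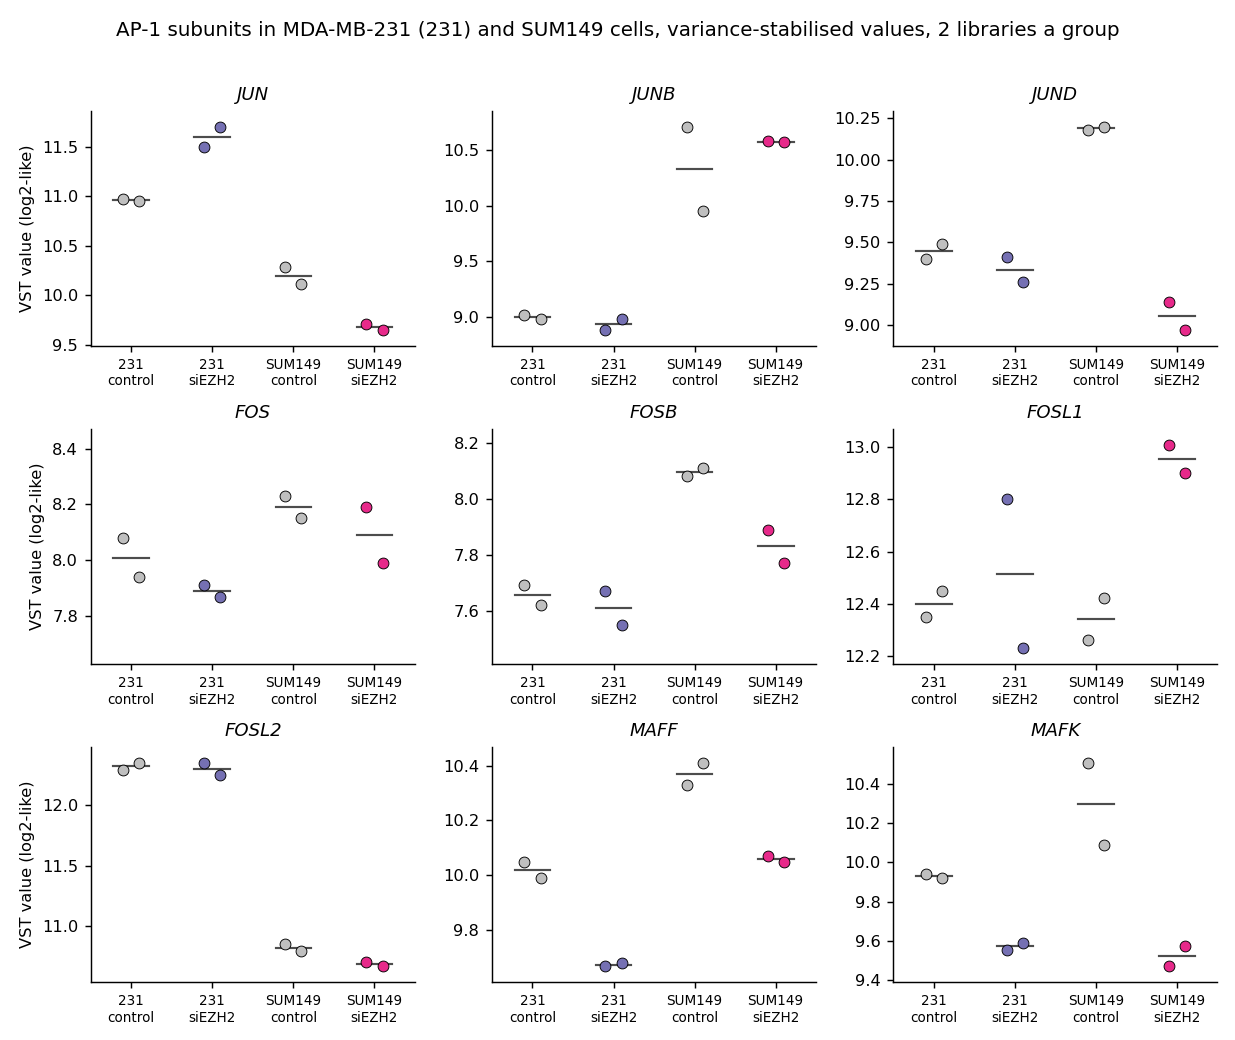
Variance-stabilised values of the 9 members with siEZH2 or its control siRNA, in each line; points are libraries and lines are means of 2, and the axes do not start at 0 because the scale is logarithmic. JUN moves up in MDA-MB-231 and down in SUM149 cells, and the JUNB and MAFK controls of SUM149 lie apart from each other.

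JUN separated all 4 groups. In MDA-MB-231 cells control libraries had 10.97 and 10.95 and siEZH2 libraries 11.49 and 11.70. In SUM149 cells control libraries had 10.28 and 10.11 and siEZH2 libraries 9.71 and 9.65. No groups overlapped, and the siEZH2 libraries held both the highest and the lowest values. JUN rose by 0.63 ± 0.08 in MDA-MB-231 cells (adjusted p = 1.1e-05) and fell by 0.51 ± 0.08 in SUM149 cells (adjusted p = 6.7e-05). On back-transformed counts the rise was 1.64-fold, from a mean of 1724 to 2826, and the fall 1.61-fold, from 912 to 567. Its response differed between the lines by -1.15 ± 0.11 in the interaction test (adjusted p = 9.9e-06). The rise and the fall were called in all 15 alternatives and the interaction in all 14.

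JUND responded in SUM149 cells. MDA-MB-231 control libraries had 9.40 and 9.49 and siEZH2 libraries 9.41 and 9.26. SUM149 control libraries had 10.18 and 10.20 and siEZH2 libraries 9.14 and 8.97. The SUM149 controls were the highest of the 8 libraries and the SUM149 siEZH2 libraries the lowest. JUND fell by 1.14 ± 0.08 in SUM149 cells (adjusted p = 5.5e-08), 3.12-fold on back-transformed counts, from 909 to 292. In MDA-MB-231 cells the change was -0.11 ± 0.08 (adjusted p = 0.25). Its response differed between the lines by -1.03 ± 0.11 (adjusted p = 2.2e-05). Both the fall in SUM149 cells and the difference were called in every alternative run, 15 and 14.

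JUNB did not pass in either line, and its SUM149 value rested on 1 library. Control MDA-MB-231 libraries had 9.01 and 8.98 and siEZH2 libraries 8.88 and 8.98, a difference of -0.07 ± 0.16 (adjusted p = 0.73). In SUM149 cells the controls were 10.71 and 9.95 and the siEZH2 libraries 10.58 and 10.57, between the controls. The change was 0.25 ± 0.16 (adjusted p = 0.20). Without SUM149 control replicate 1 it was 0.62 (adjusted p = 1.9e-05), and without control replicate 2 it was -0.13. Between the lines the response likewise went from 0.32 ± 0.23 (adjusted p = 0.35) to 0.70 (adjusted p = 0.00035) without SUM149 control replicate 1.

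FOSL1 rose in SUM149 cells. The SUM149 controls stood at 12.26 and 12.42 and the siEZH2 libraries at 13.01 and 12.90, the highest of the 8. The rise was 0.62 ± 0.13 (adjusted p = 0.0011), 1.56-fold on back-transformed counts, and was called in all 15 alternatives. In MDA-MB-231 cells the controls were 12.35 and 12.45 and the siEZH2 libraries 12.80 and 12.23, on either side of them. That change was 0.11 ± 0.13 (adjusted p = 0.49), -0.17 without siEZH2 replicate 1 and 0.40 (adjusted p = 0.0015) without siEZH2 replicate 2. A difference in response between the lines did not pass (0.50 ± 0.18, adjusted p = 0.066). With 1 library left out it lay between 0.22 and 0.79, the latter without MDA-MB-231 siEZH2 replicate 1. It was called in 4 of 14 alternatives, among them libraries centred on their medians and estimated counts (0.53, adjusted p = 0.047 for each).

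FOSL2 did not pass in either line. Control MDA-MB-231 libraries had 12.29 and 12.35 and siEZH2 libraries 12.35 and 12.25, a difference of -0.02 ± 0.06 (adjusted p = 0.74). In SUM149 cells it stood at 10.85 and 10.79, then 10.70 and 10.67. The SUM149 groups did not overlap, but the change of -0.13 ± 0.06 missed the threshold (adjusted p = 0.053), and was called without MDA-MB-231 siEZH2 replicate 1 or replicate 2 (-0.13, adjusted p = 0.041 for each) or with libraries centred on their medians (-0.15, adjusted p = 0.032). FOS lay between 7.87 and 8.23 in all 8 libraries with differences of -0.12 ± 0.08 in MDA-MB-231 cells and -0.10 ± 0.08 in SUM149 cells (adjusted p = 0.20 and 0.26). FOSB lay near the lowest value of the table, 7.12, and was not tested. It had 7.69 and 7.62 in MDA-MB-231 controls, and 7.67 and 7.55 with siEZH2. In SUM149 cells it had 8.08 and 8.11 in controls, and 7.89 and 7.77 with siEZH2, which did not overlap.

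Both small MAF genes fell in both lines. For MAFF, control MDA-MB-231 libraries had 10.05 and 9.99 and siEZH2 libraries 9.67 and 9.68. SUM149 libraries had 10.33 and 10.41 with the control siRNA and 10.07 and 10.05 with siEZH2. In each line both siEZH2 libraries were under both controls. MAFF fell by 0.35 ± 0.06 (adjusted p = 0.00025) and 0.31 ± 0.06 (adjusted p = 0.00064), called in all 15 alternatives, and the difference between the lines was 0.04 ± 0.08 (adjusted p = 0.78). PLA2G6, on the other strand, moved the other way, by 0.18 ± 0.06 and 0.39 ± 0.06.

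For MAFK, control MDA-MB-231 libraries had 9.94 and 9.92 and siEZH2 libraries 9.55 and 9.59. SUM149 libraries had 10.51 and 10.09 with the control siRNA and 9.47 and 9.57 with siEZH2. Its siEZH2 libraries were under the controls in each line. MAFK fell by 0.36 ± 0.10 in MDA-MB-231 cells (adjusted p = 0.0080), a call lost without control replicate 1 (-0.35, adjusted p = 0.068) or control replicate 2 (-0.38, adjusted p = 0.052). In SUM149 cells it fell by 0.79 ± 0.10 (adjusted p = 2.3e-05), and between -1.0 and -0.58 with 1 library left out, at an adjusted p of at most 0.0010. The difference between the lines missed the threshold (-0.42 ± 0.14, adjusted p = 0.053) and was called in 4 of 14 alternatives. With 1 library left out it lay between -0.63, without SUM149 control replicate 2, and -0.21. TMEM184A, which overlaps MAFK on the opposite strand, fell as well, by 0.76 ± 0.07 and 0.85 ± 0.07. No source used here says whether reads of this pair were kept apart.

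**Figure D4:**
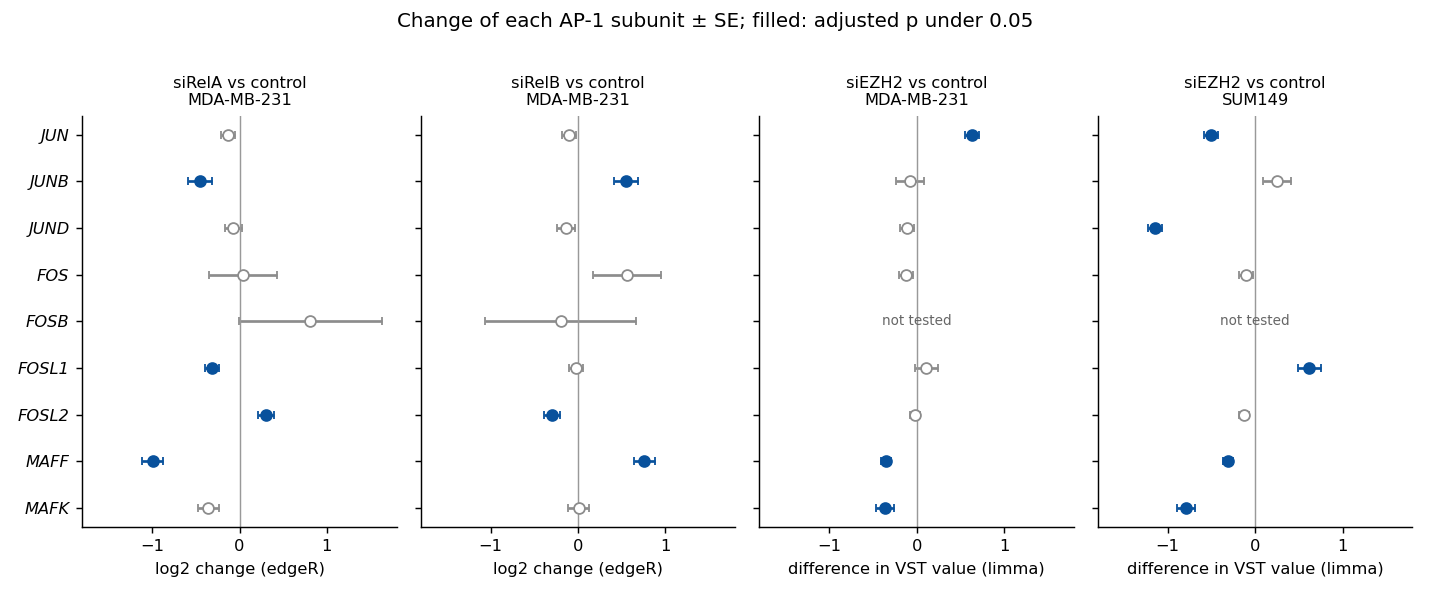
Change of each member against its control (point) with its SE (bar) in the 4 knockdown comparisons, on the log2 scale for counts (edgeR) and as a difference in variance-stabilised value (limma); filled points passed at an adjusted p under 0.05. MAFF passes in all 4, down in 3 and up under siRelB, and JUN passes only under siEZH2, with opposite signs in the 2 lines.

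Of the 8 members tested, JUN and JUND were those whose response to siEZH2 differed between the lines, when 21.5% of genes were called (11.2% up, 10.4% down). EZH2 itself fell by less in SUM149 cells (difference 0.51 ± 0.10, adjusted p = 0.0035 in limma's interaction test). RELB did too (0.52 ± 0.11, adjusted p = 0.0044). The part of this unequal depletion in the differences between the lines, of members and of further lists, was not tested. The lines also differed before depletion. Under control siRNA 5 of 8 members were higher in SUM149 and 2 were lower, when 82.8% of genes were called (41.3% up, 41.5% down). Of 7 epithelial and line markers 3 were higher in SUM149, KRT5 (3.21 ± 0.07), VIM (0.88 ± 0.07) and CDH1 (0.64 ± 0.06). Another 3 were lower, KRT19 (-4.3 ± 0.08), KRT8 (-1.57 ± 0.06) and KRT18 (-1.4 ± 0.06), and EPCAM did not pass (0.15 ± 0.07). Of 4 fibroblast markers 1 was higher, DCN (3.92 ± 0.07), and 2 were lower. FOSL2 was 3.15-fold lower in SUM149 cells on back-transformed counts (-1.5 ± 0.06, adjusted p = 1.0e-11), and JUN was 1.89-fold lower (-0.77 ± 0.08, adjusted p = 3.9e-07). JUNB was higher by 1.34 ± 0.16 (adjusted p = 3.0e-06), and by 0.96 to 1.71 with 1 library left out. JUND was higher by 0.75 ± 0.08 (adjusted p = 4.8e-07), and MAFF by 0.35 ± 0.06 (adjusted p = 0.00010). After depletion the SUM149 libraries had less JUND than either MDA-MB-231 group. MAFK was higher by 0.37 ± 0.10 (adjusted p = 0.0041) and FOS by 0.18 ± 0.08 (adjusted p = 0.040). Without SUM149 control replicate 1 these were 0.16 (adjusted p = 0.069) and 0.14 (adjusted p = 0.16), and FOS was 0.11 (adjusted p = 0.30) without MDA-MB-231 control replicate 2. The FOS call was also lost without the filter on low values (0.18, adjusted p = 0.072) and with counts estimated from the deposited values (0.51, adjusted p = 0.070). FOSL1 did not pass (-0.06 ± 0.13, adjusted p = 0.67).

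Genes around AP-1 were read from 7 further lists. These were chosen with earlier results of these data known. Their counts and medians beside the values over all genes are therefore descriptions and not tests. Under siRelA, when 19.0% of all genes were called (8.82% up, 10.2% down), 10 of 16 tested AP-1 target genes fell and 0 rose, with a median change of -0.70 against 0.02 over all genes. PLAU, the urokinase protease, went from 780 and 730 CPM in the controls to 123 and 153 (-2.45 ± 0.10, adjusted p = 5.8e-11). HBEGF, a growth factor of the EGF family, fell by 1.83 ± 0.10, the cytokine IL11 by 1.61 ± 0.15 and the chemokine CXCL8 by 2.37 ± 0.28. Several of these, CXCL8, IL6 and CSF2 among them, are also textbook targets of NF-kB, so the list is not specific to AP-1. NRF2 and small MAF target genes went the other way, with 7 of 10 higher and 0 lower, and 4 higher without control replicate 1 or siRelA replicate 1. Their median was 0.39. HMOX1, haem oxygenase, went from 44.4 and 41.5 CPM to 80.7 and 102 (1.09 ± 0.13, adjusted p = 1.8e-05), and GCLM, of glutathione synthesis, rose by 0.71 ± 0.09.

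SRF, the factor that drives FOS and other immediate-early genes, fell 2.61-fold under siRelA, from 201 and 198 CPM to 74.4 and 78.4 (-1.38 ± 0.08, adjusted p = 7.5e-09). With its cofactor ELK4 (-0.65 ± 0.11) it made up the 2 of 6 genes of that list that fell, and 0 rose, while the median of the 6 was 0.08. FOS itself did not pass, as above. Of 18 other immediate-early genes 6 fell and 0 rose, led by the matricellular genes CCN1 (-1.01 ± 0.09) and CCN2 (-0.75 ± 0.09) and by IER3 (-0.60 ± 0.09). The MAP kinase cascade split, with 4 of 21 higher and 4 lower, 5 in all without control replicate 2 or siRelA replicate 1. MAP2K1 (MEK1) fell by 0.65 ± 0.09 and MAP3K1 (MEKK1) rose by 0.72 ± 0.13. Among other bZIP partners ATF7 rose (0.86 ± 0.14) and BACH1 (-0.71 ± 0.12) and NFE2L3 (-0.43 ± 0.08) fell, 3 of 16, near the 19.0% of all genes.

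Under siRelB 18.3% of all genes were called (7.45% up, 10.8% down), and the counts of the bZIP, SRF, immediate-early and turnover lists were near that share. The AP-1 targets split: of them 3 of 16 rose and 4 fell, 4 in all without control replicate 1 and 3 without control replicate 2, and the median was -0.01. VEGFA fell by 0.87 ± 0.09 and IL11 rose by 0.78 ± 0.14. Of NRF2 and small MAF targets 2 of 10 rose, GCLM (0.59 ± 0.09) among them, and 2 fell, TXNRD1 (-0.60 ± 0.09) and ME1 (-0.53 ± 0.11). MAFG, the third small MAF, fell by 0.79 ± 0.09 while MAFF rose, and JDP2, a repressive AP-1 partner, fell by 1.07 ± 0.21; in all 1 of 16 bZIP partners rose and 3 fell, and 0 rose and 2 fell without control replicate 2. MAP2K1 fell by 1.15 ± 0.09 and MAPK14 (p38) by 0.54 ± 0.08, among 4 lower and 2 higher of 21 in the MAP kinase cascade, 3 in all without control replicate 1. Of the immediate-early genes 1 of 18 rose and 3 fell, with CCN1 at -0.80 ± 0.09 and KLF6 at -0.65 ± 0.09. Of the SRF list ELK3 alone fell (-0.36 ± 0.08), 1 of 6, and 2 fell without siRelB replicate 1. Directly, 10 of 16 AP-1 targets differed between siRelA and siRelB, when 29.9% of all genes did, with CXCL8 at -3.20 ± 0.27. SRF, of another list, differed by -1.19 ± 0.08.

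Under siEZH2 the response of many AP-1 targets differed between the lines. In MDA-MB-231 cells 6 of 17 rose and 4 fell, near the 56.6% of all genes called there (29.4% up, 27.1% down), with a median of 0.07. In SUM149 cells 11 rose and 4 fell, when 58.0% of all genes were called (29.4% up, 28.6% down), with a median of 0.46. The difference between the lines passed for 15 of 17, 11 of them more positive in SUM149 cells, when it passed for 21.5% of all genes. The cyclin gene CCND1 fell by 1.10 ± 0.05 in MDA-MB-231 cells. The cytokine IL6 fell in both lines, by 0.92 ± 0.07 and 1.89 ± 0.07, and by more in SUM149 cells (difference -0.97 ± 0.09, adjusted p = 1.2e-05). In SUM149 cells the protease MMP9 rose by 1.55 ± 0.07, PLAU by 1.38 ± 0.06 and VEGFA by 1.0 ± 0.05. The differences for MMP9 (1.54 ± 0.10) and PLAU (1.03 ± 0.09) also passed, but that for MMP9 did not on counts estimated from the deposited values (1.52, adjusted p = 0.17).

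ATF3, a stress-induced bZIP repressor, fell by 0.80 ± 0.07 in MDA-MB-231 and by 1.22 ± 0.07 in SUM149 cells. MAFG fell beside MAFF and MAFK, by 0.42 ± 0.06 and 0.63 ± 0.06. In all, 4 of 13 tested bZIP partners rose and 3 fell in MDA-MB-231 cells (1 and 2 with a stricter filter on low values), and 2 rose and 6 fell in SUM149 cells, near the shares of all genes called, 56.6% and 58.0%. SLC7A11, the cystine transporter among the NRF2 and small MAF targets, fell from 13.55 and 13.54 to 11.55 and 11.54 in MDA-MB-231 cells (-2.0 ± 0.05, adjusted p = 2.4e-11) and from 11.78 and 11.73 to 10.58 and 10.63 in SUM149 cells (-1.15 ± 0.05, adjusted p = 1.5e-09). The list as a whole split, with 2 of 10 higher and 5 lower in the first line and 4 higher and 5 lower in the second, as GCLM rose by 0.61 ± 0.05 and 0.54 ± 0.05 and GCLC fell by 0.67 ± 0.05 and 0.64 ± 0.05.

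Among immediate-early genes CCN1 fell in both lines, by 0.86 ± 0.06 and 1.23 ± 0.06. KLF4 fell by 0.74 ± 0.06 in SUM149 cells and KLF6 rose by 0.72 ± 0.08 in MDA-MB-231 cells, and the list had 3 of 15 higher and 8 lower in MDA-MB-231, and 3 higher and 6 lower in SUM149 cells. ELK3 rose by 0.71 ± 0.06 and 0.72 ± 0.06, the 1 of 6 in its list to rise in either line, beside 3 that fell in MDA-MB-231 (1 without control replicate 2) and 2 in SUM149 cells. In the MAP kinase cascade MAP2K6 rose by 0.59 ± 0.06 and 0.92 ± 0.06 and MAP3K1 by 0.45 ± 0.06 and 0.77 ± 0.06. That list had 5 of 21 higher and 6 lower in MDA-MB-231 cells and 8 higher and 2 lower in SUM149 cells, no more than the 56.6% and 58.0% of all genes. The difference between the lines passed for 6 of its genes, when it passed for 21.5% of all genes, all more positive in SUM149 cells, but for 1 without MDA-MB-231 control replicate 1. Of 8 genes for JUN and FOS protein turnover and coactivation, among them the ubiquitin ligase gene FBXW7, 3 were higher and 2 lower in each line, and 1 and 2 in MDA-MB-231 without control replicate 2. The counts of the immediate-early, SRF and turnover lists are to be read against the same shares of all genes. Under siRelA and under siRelB 1 of the 8 fell, FBXW7 (-0.59 ± 0.15) and CREBBP (-0.37 ± 0.10) respectively. The first call was lost without control replicate 2 or siRelA replicate 1, and the second without control replicate 2 or siRelB replicate 2, leaving 0.

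**Figure D5:**
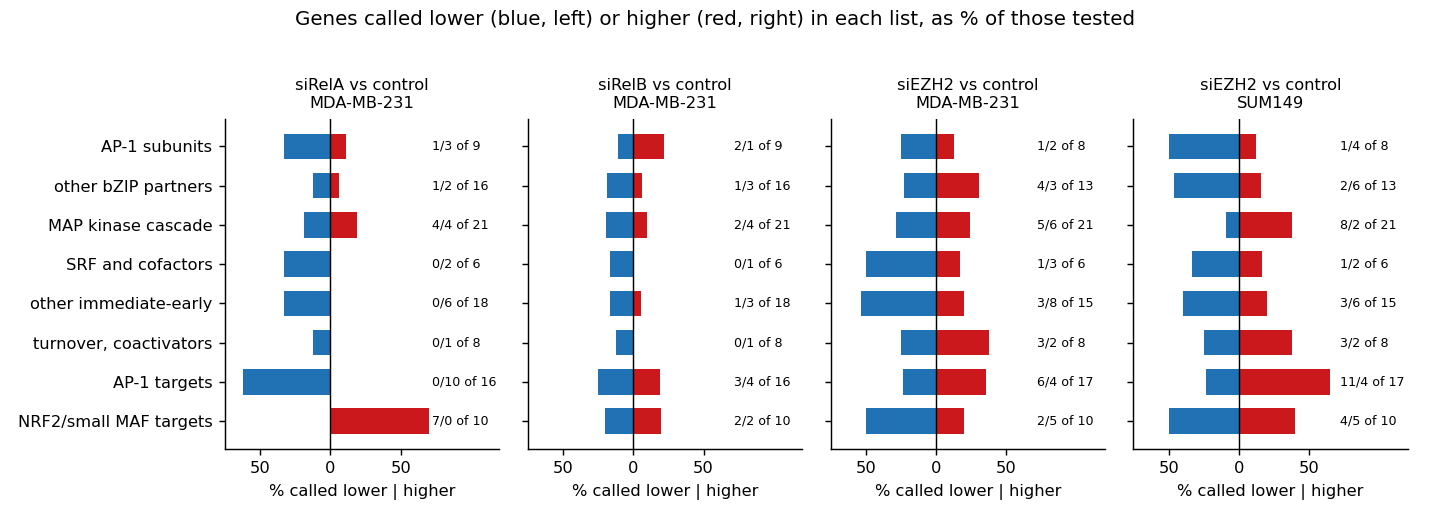
Share of tested genes called lower (blue, to the left) and higher (red, to the right) at an adjusted p under 0.05 in the AP-1 subunits and 7 further lists, in the 4 knockdown comparisons; the text at the right gives the number higher / lower of those tested. The AP-1 targets are 10 lower and 0 higher of 16 under siRelA, and 11 higher and 4 lower of 17 under siEZH2 in SUM149 cells.

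Over the 14 libraries, with each gene centred within its experiment and line, the genes most like FOSL1 among 11622 were PDLIM1 (Pearson's r = 0.921), SLC20A1 (0.909) and LIX1L (0.909). Those most like JUN were ACTR1B (0.926), CPA4 (0.918) and CCDC22 (0.884). CPA4, picked by this likeness, moved with JUN under siEZH2, by 0.86 ± 0.06 in MDA-MB-231 cells and -0.61 ± 0.06 in SUM149 cells. Under siRelB CPA4 fell (-0.51 ± 0.13), where JUN did not pass. Among the members, JUND had r = 0.502 with JUN and -0.662 with FOSL1. These are descriptions over libraries that share groups and depth, not tests.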

How the data were processed

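RNA was sequenced in 14 libraries in 7 groups of 2 that the labels call biological duplicates. For the first experiment the authors deposited raw read counts per Ensembl gene, and 58207 of 58735 identifiers matched a symbol; per the submitters' processing notes, featureCounts 1.5.0-p3, HISAT2 2.0.5 and DESeq2 1.20.0 were used with build hg19. For the second the deposited table holds the authors' variance-stabilised expression, close to a log2 scale; STAR 2.5.2b, Salmon, cutadapt, DESeq2 and hg19 are listed in the same notes. The libraries of the experiments were made at different facilities, per the labels' protocols. No source used here gives the annotation release, the strand setting or the transformation's settings. Positions are from GENCODE v44 (GRCh38) and were not converted.

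Counts were fitted with the quasi-likelihood test of edgeR 4.0.16 (TMM, default filter, 6 libraries, 3 residual degrees of freedom), and the other values with limma 3.58.1 (variance trend, 8 libraries, 4 residual degrees of freedom) over genes that exceeded the lowest value by at least 1 in 2 or more libraries. Benjamini-Hochberg adjustment was over all genes tested, with calls at adjusted p under 0.05. Both fits were tested on simulated data. Back-transformed counts invert the variance-stabilising formula. They are approximate: 78.4% to 82.9% of values up to 10 reads came out whole within 0.05 read, and 47.3% to 64.3% from 11 to 100 reads, where FOS and FOSB lie. CPM per kb used merged exons. The members and the lists were chosen with earlier results of these data known. Named were all members, the targeted genes, up to 4 genes per list and comparison with the smallest adjusted p, and the 3 genes most like FOSL1 and JUN. A gene of the bZIP partner list is counted there and not reported singly here. HOOK2, PLA2G6, TMEM184A and the marker genes were named for their position or list. Alternatives were other size factors and tests (DESeq2 1.42.0), filters, centring, estimated counts, a replicate block and each library left out.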

Additional observations from a re-analysis of the deposited data

Results flagged for a closer look

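The response of JUN to siEZH2 differed between SUM149 and MDA-MB-231 cells by -1.15 in variance-stabilised value in the interaction test of limma, because JUN rose in both MDA-MB-231 siEZH2 libraries and fell in both SUM149 siEZH2 libraries. The response of JUND differed by -1.03 in the same test, with both SUM149 siEZH2 libraries far under their controls and the MDA-MB-231 libraries overlapping theirs.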

How the results depend on the processing

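Leaving out 1 library at a time gave 1624 to 3287 called genes and 1 to 5 called members under siRelA, 1520 to 3362 genes and 1 to 3 members under siRelB, 3 to 5 members between siRelA and siRelB, and 1611 to 2532 genes for the difference of the siEZH2 responses between the lines. The lone library left in a group is assumed to vary like the others. That difference called 4 members with the replicate block and 4 with counts estimated from the variance-stabilised values, against 2; FOSL1 and MAFK, both near the threshold, were added. The estimated counts split its genes 1317 up and 716 down, against 1381 and 1281. The replicate numbers share only a number: deviations of same-numbered libraries correlated at -0.025 to 0.048 in the first experiment and, between the siEZH2 and control libraries of a line, at 0.088 and -0.117. The block gave 2958, 2828, 4680, 6937, 7132, 2571 and 10215 called genes in the 7 comparisons, against 3031, 2913, 4768, 6990, 7163, 2662 and 10236. Crossing the SUM149 numbers, added after seeing the data, gave 7278. Alternatives for the lists were added after seeing the data too.

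Direction changed with 1 library left out only for values that had not passed: under siRelA JUND (-0.20 to 0.03) and FOS (-0.33 to 0.50), under siRelB FOSB (-2.42 to 0.62), FOSL1 (-0.12 to 0.06) and MAFK (-0.11 to 0.10), between them JUN (-0.10 to 0.03) and JUND (-0.06 to 0.17), under siEZH2 FOSL1 (-0.17 to 0.40) and FOSL2 (-0.08 to 0.03) in MDA-MB-231 and JUNB (-0.13 to 0.62) in SUM149 cells, for the difference between the lines JUNB (-0.06 to 0.70) and FOS (-0.09 to 0.12), and between the controls FOSL1 (-0.14 to 0.02). MAFK under siRelB was -0.01 without the filter, and the cause was not tested. Of 789 alternative values for members, 721 kept direction and side of the threshold, 26 lost a call, 22 gained one and 20 changed direction. FOS and FOSB had few reads and wide errors in the first experiment, and the cause of these errors was not tested.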
